A study of Homo sapiens with 6 samples.

Results

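The BCL2 family decides whether a cell under stress opens its mitochondria and dies. The genes examined were 10 of its well-studied members, chosen by name but with earlier results of these data known. They were the anti-apoptotic BCL2, BCL2L1, MCL1, BCL2A1 and BCL2L2, the effectors BAX and BAK1, and the BH3-only genes BBC3, PMAIP1 and BCL2L11. A probe belonged to a member when the RefSeq accession that the array files give for it maps to that gene. By this rule 15 of 34127 probes measured all 10 members, out of 19740 genes that could be named on the array.

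RNA came from SU-DHL-2, an established cell line of diffuse large B-cell lymphoma (DLBCL). In the treated group 3 samples were cultured with IL-17A (200 pg/ml, 72 h), 3 were cultured for the same time without it, and each was hybridized to 1 single-colour Whole Human Genome array. No genetic change was made to the cells, and 1 cell line is a model of 1 lymphoma. The labels do not say whether the samples of a group were separate cultures, so the p-values measure the spread between these samples, which may be technical.

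Anti-apoptotic members bind and hold their death-promoting relatives through a groove on their surface. BAX and BAK1, once freed or activated, oligomerize in the outer mitochondrial membrane and release cytochrome c. BH3-only proteins carry the signal: each is induced or unleashed by a kind of stress and then occupies the groove of the survival proteins or activates the effectors. In B cells the survival of the cell depends on which anti-apoptotic proteins are present, and high BCL2 is a familiar feature of B-cell lymphoma.

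The arrays were similar in quality. No spot was saturated, between 23567 and 24077 probes per array were detected, and the Pearson correlation between arrays across tested probes was 0.994 to 0.997 within a group and 0.993 to 0.995 between groups. All 8 B cell markers checked were detected on all 6 arrays, among them CD79A, CD79B and MS4A1, while PAX5 was dim, with a mean signal of 13.6 against a lowest signal well above background of 4.46 to 4.61. Of the marker lists of other cell types, 1 of 8 T and NK cell genes (KLRD1), 4 of 6 monocyte genes (CSF1R, S100A8, S100A9 and CD163), 5 of 7 mesenchymal genes and 1 of 6 endothelial genes (KDR) were detected on no array. The summed signal of the endothelial list was 266 to 279 with IL-17A and 305 to 351 in the controls, and that of the monocyte list was 87.9 to 95.1 and 98.3 to 107.9; the part of such differences in the results was not tested. Of the endothelial genes all 5 that were tested were lower with IL-17A and none was called. Of the 7 T and NK cell genes tested, 4 were higher and 3 lower. CD3E, with a mean signal of only 8.04, was called lower, against 3.50% of all named genes. The summed signal of that list overlapped between the groups, at 213 to 234 with IL-17A and 222 to 234 in the controls. The study describes no other cell type in these SU-DHL-2 cultures, so the lists are not read as numbers of other cells. In bulk RNA, fewer SU-DHL-2 cells with a transcript and less of it per cell cannot be told apart. The first scan held all 3 controls and IL-17A replicate 1, and the other scan held the remaining IL-17A arrays, so treatment and scan overlap in part. Arrays were assigned to a scan by a shared scan identifier in their files. Below, slide as a block means this scan, and whether each scan was 1 slide was inferred from the identifier.

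All 15 probes of the members were detected on all 6 arrays and were tested. Each gene is described at its brightest probe, with log2 signals after quantile normalization, and a change is called at a Benjamini-Hochberg adjusted p under 0.05 from limma over 23905 probes. Of the 10 members 1 was called, BBC3, which was higher with IL-17A. Over the brightest probes of all 14727 named genes that were tested, 7.86% were called, and over all tested probes 7.63%, so the share of members called was near the background. In the direction of BBC3, 4.37% of the named genes were called higher, and 3.50% were called lower. An unadjusted p under 0.05 was found for 3 members (BCL2, BCL2L1 and BBC3), against 31.7% of the named genes. None of the members reached the 1.5-fold change at an unadjusted p under 0.05 that the study used, with limma or with the methods' t-test, and 1.91% of the named genes did. The median difference of the members was 0.13 on the log2 scale, against 0.0034 for all named genes. With IL-17A 9 of the 10 were higher at any p, against 50.9% of the named genes, and the groups did not overlap for 6 of the 10, against 40.7%. The members were chosen with earlier results known, so these counts are descriptions and no test of the family.

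**Figure D1:**
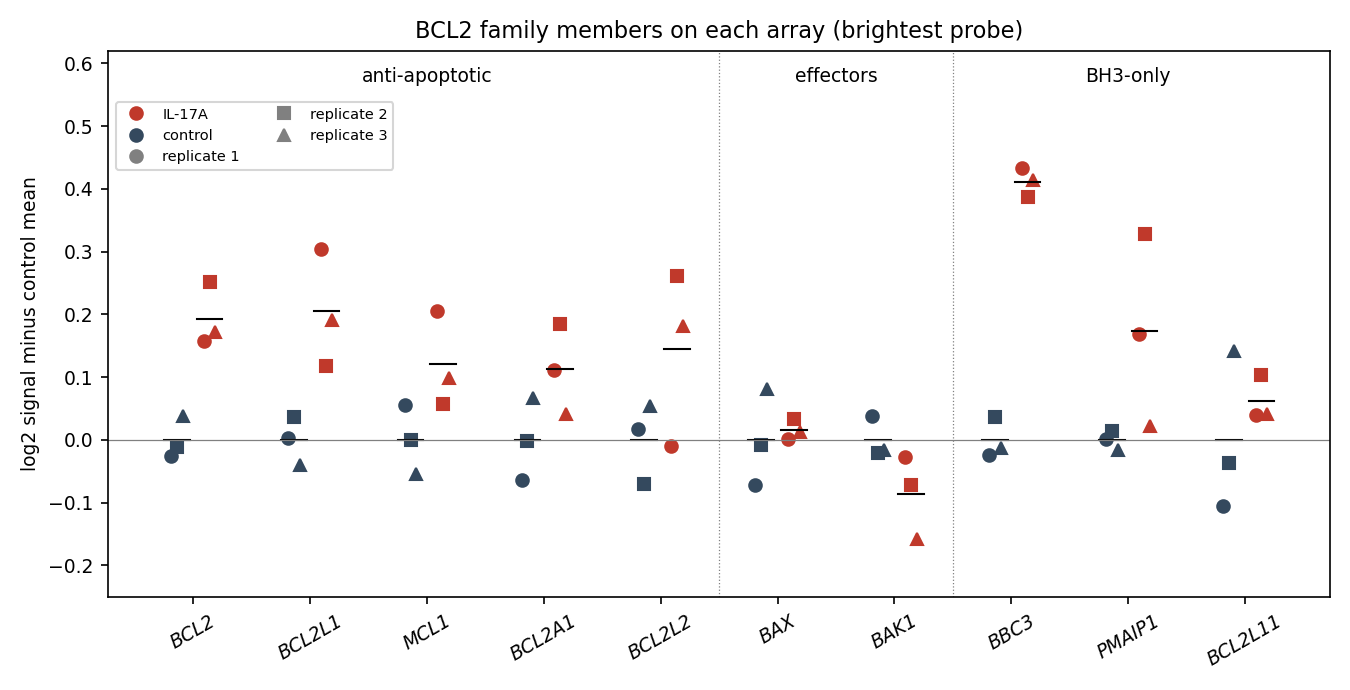
Log2 signal of each member on each array, as the difference from the mean of its 3 control arrays; colours give the group, symbols the replicate number and lines the group means. The 3 IL-17A arrays of BBC3 lie far above its controls, while the groups of BAX overlap.

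BBC3 encodes PUMA, a BH3-only protein that binds every anti-apoptotic member. Its log2 signal was 11.67, 11.62 and 11.65 on the IL-17A arrays and 11.21, 11.27 and 11.22 on the control arrays. The groups were far apart for their narrow spread. The difference was 0.41 (standard error 0.04, 95% interval 0.32 to 0.50), a 1.33-fold increase, with an adjusted p of 0.0243 from limma. It was 0.40 to 0.43 with any 1 array left out. The adjusted p was then 0.0479 to 0.125 by limma, and the call was lost without IL-17A replicate 1, 2 or 3 and without control replicate 1 or 2. The unadjusted p over the arrays left out was 0.000278 to 0.000553 by limma. The fits that lost the call left 2 to 67 of all tested probes called, against 1823 in the main fit. With slide as a block, which compares IL-17A replicate 1 with the 3 controls of its own scan, the difference was 0.43, with an unadjusted p of 0.000674 and an adjusted p of 0.0823 from limma.

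Over the 6 arrays, the 2 genes outside the members whose signal followed BBC3 most closely were NT5C3A, a pyrimidine nucleotidase, and HRK, another BH3-only gene, both at a Pearson r of 0.998. They were looked for among 10046 named genes with a mean log2 signal of at least 6, of which 429 had an r over 0.95. These points share the arrays and the difference between the groups, and an r over 6 arrays is given as a description.

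The promoters of BBC3 and HRK are shown because they belong to the BCL2 family genes that were called, and that of BAX because it belongs to a member whose difference was near 0. RefSeq sequences of GRCh38.p14 were used, from 250 bases before to 50 bases after the start that the table gives, on the strand of the gene. Capitals mark an E-box (CACGTG), which factors such as MYC bind, or the letters TGATGNAA, the core of an amino acid response element that ATF4 and DDIT3 bind, searched on both strands; no marked site overlaps another.
BBC3, chr19:47232618-47232917, minus strand: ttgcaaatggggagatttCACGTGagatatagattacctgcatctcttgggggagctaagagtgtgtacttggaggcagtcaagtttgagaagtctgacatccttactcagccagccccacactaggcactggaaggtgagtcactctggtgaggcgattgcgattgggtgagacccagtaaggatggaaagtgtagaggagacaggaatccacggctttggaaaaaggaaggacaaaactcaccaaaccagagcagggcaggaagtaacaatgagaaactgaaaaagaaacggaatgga
HRK, chr12:116881392-116881691, minus strand: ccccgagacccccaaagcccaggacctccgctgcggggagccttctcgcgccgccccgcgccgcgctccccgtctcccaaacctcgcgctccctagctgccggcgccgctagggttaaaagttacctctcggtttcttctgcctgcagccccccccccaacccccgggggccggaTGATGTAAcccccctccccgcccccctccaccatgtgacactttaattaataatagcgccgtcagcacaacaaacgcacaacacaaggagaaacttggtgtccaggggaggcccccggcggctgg
BAX, chr19:48954625-48954924, plus strand: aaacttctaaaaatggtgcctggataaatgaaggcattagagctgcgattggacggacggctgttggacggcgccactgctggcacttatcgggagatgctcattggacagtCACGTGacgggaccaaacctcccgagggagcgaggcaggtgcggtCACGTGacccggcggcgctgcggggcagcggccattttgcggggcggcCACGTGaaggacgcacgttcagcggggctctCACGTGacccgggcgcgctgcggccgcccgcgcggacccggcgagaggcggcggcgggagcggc
CACGTG occurred once in the window of BBC3 and 4 times in that of BAX, and in 7.26% of 35116 promoters of the same length. TGATGNAA occurred once in the window of HRK, and in 3.62% of the promoters. Of the 8 members with an entry in the table, 2 held CACGTG and 1, BCL2A1, held TGATGNAA. The matches describe letters in these windows, and BBC3 has other starts that the window does not cover.

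PMAIP1 encodes NOXA, which binds MCL1 and BCL2A1 and is induced by ATF4. Its log2 signal was 11.20, 11.36 and 11.06 with IL-17A and 11.04, 11.05 and 11.02 in the controls. The groups did not overlap, but the IL-17A arrays were spread over a range wider than the difference between the means. At 0.17 and a standard error of 0.08, the gene was not called (limma, adjusted p = 0.208). The difference of PMAIP1 was 0.096 without IL-17A replicate 2, its highest array, and 0.25 without IL-17A replicate 3, its lowest IL-17A array. With slide as a block it was 0.17, under normexp 0.19 and with array weights 0.032.

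BCL2L11 encodes BIM, which binds all anti-apoptotic members and is needed for the death of lymphocytes after loss of growth factors. It was measured by 3 probes. At the brightest, designed for transcript NM_138621, the log2 signal was 11.66, 11.72 and 11.66 with IL-17A and 11.51, 11.58 and 11.76 in the controls, so that the groups overlapped (difference 0.062, standard error 0.07, adjusted p = 0.594 from limma). Both probes for transcript NM_207002 were lower with IL-17A and did not overlap between the groups. The dimmer of these was at 6.08, 5.91 and 5.91 against 6.23, 6.34 and 6.20, a difference of -0.29 (95% interval -0.46 to -0.12, adjusted p = 0.0614 from limma), and the other differed by -0.095 (adjusted p = 0.174). The log2 ratio of the brightest probe to the dimmest was 0.35 higher with IL-17A, and to the other probe 0.16 higher, both without overlap between the groups (p = 0.1 by a two-sided exact permutation test, which cannot go lower with 3 and 3 arrays). None of the 3 probes was called. The size of the difference at the brightest was not settled, since it was 0.0082 without control replicate 1 and 0.13 without control replicate 3. Its 95% interval of -0.12 to 0.24 left the direction unsettled too.

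Among the anti-apoptotic members all 5 were higher with IL-17A at their brightest probe and none was called. BCL2, the founding member of the family, was closest to the threshold. At the probe for transcript NM_000633, which encodes the alpha isoform, its log2 signal was 8.47, 8.56 and 8.48 with IL-17A and 8.29, 8.30 and 8.35 in the controls, without overlap. The difference was 0.19 (standard error 0.04, 95% interval 0.085 to 0.30), or 1.14-fold, at an unadjusted p of 0.00518 and an adjusted p of 0.0556 from limma. It was called when probes detected on all 6 arrays were tested (adjusted p = 0.0460 from limma), with an intensity trend (0.0231), under normexp (0.0344) and with array weights (0.000918). The fit with array weights called 14836 of the 23905 tested probes. BCL2 was not called with any 1 array left out (adjusted p = 0.0700 to 0.188 from limma). Scaling to the 75th percentile (0.0642), a replicate block (0.143) and the methods' t-test (0.0654) did not call it either. Nor did signals without normalization between arrays (0.210) or the log2 values that the authors deposited (0.0539). With the mean of both BCL2 probes the difference was 0.066, at an adjusted p of 0.319 from limma. The adjusted p of BCL2 over the alternatives was 0.000918 to 0.515, where 0.515 belongs to the other, dimmer probe of the gene. With slide as a block the difference at the alpha probe was 0.16, at an unadjusted p of 0.0546 and an adjusted p of 0.222 from limma.

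The second BCL2 probe, for the beta isoform transcript NM_000657, was not higher. It read 4.86, 4.69 and 4.74 with IL-17A and 4.78, 4.82 and 4.88 in the controls, which overlap (difference -0.062, standard error 0.06, adjusted p = 0.515 from limma). The log2 ratio of the alpha to the beta probe was 3.74 ± 0.14 on the IL-17A arrays, against 3.49 ± 0.02 on control arrays (SD, n = 3 each), without overlap (p = 0.1 by a two-sided exact permutation test, the lowest it can give). Only the change of such a ratio between arrays can be read, because the brightness of different probes cannot be compared. Transcripts are assigned by the accession of a probe. Whether the probes of BCL2, BCL2L11 and BAX are specific to an isoform was not checked.

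BCL2L1 encodes the survival protein BCL-XL. On the arrays BCL2L1 had a log2 signal of 6.73, 6.54 and 6.62 with IL-17A and 6.43, 6.46 and 6.39 in the controls, without overlap. The difference of 0.20 (standard error 0.06, 95% interval 0.058 to 0.35) had an unadjusted p of 0.0146 and an adjusted p of 0.0845 from limma. With slide as a block it was 0.30, at an unadjusted p of 0.00523 and an adjusted p of 0.110. IL-17A replicate 1, the array scanned with the controls, was the highest of the 3.

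MCL1 encodes a short-lived survival protein on which many B-cell lymphomas depend. The log2 signal of MCL1 was 10.13, 9.98 and 10.02 with IL-17A and 9.98, 9.92 and 9.87 in the controls, and the groups were separated only by a narrow margin. The difference of 0.12 had an adjusted p of 0.204 from limma. It was 0.21 with slide as a block, at an unadjusted p of 0.0266.

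BCL2A1, or A1, is a survival gene driven by NF-kB. Its brighter probe was at 10.07, 10.14 and 10.00 with IL-17A and 9.90, 9.96 and 10.03 in the controls, with overlap (difference 0.11, adjusted p = 0.236 from limma). The dimmer probe for the same transcript gave 0.099 (adjusted p = 0.155), without overlap, so that both probes of BCL2A1 agree within their standard errors of 0.06 and 0.04. BCL2L2, which encodes BCL-W, was at 6.66, 6.93 and 6.85 with IL-17A and 6.68, 6.59 and 6.72 in the controls. Here IL-17A replicate 1 lay among the controls: the difference of 0.14 (adjusted p = 0.275 from limma) was -0.0092 with slide as a block. BCL2L2 lies in a locus with a readthrough transcript into PABPN1, so its probe may not be specific.

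**Figure D2:**
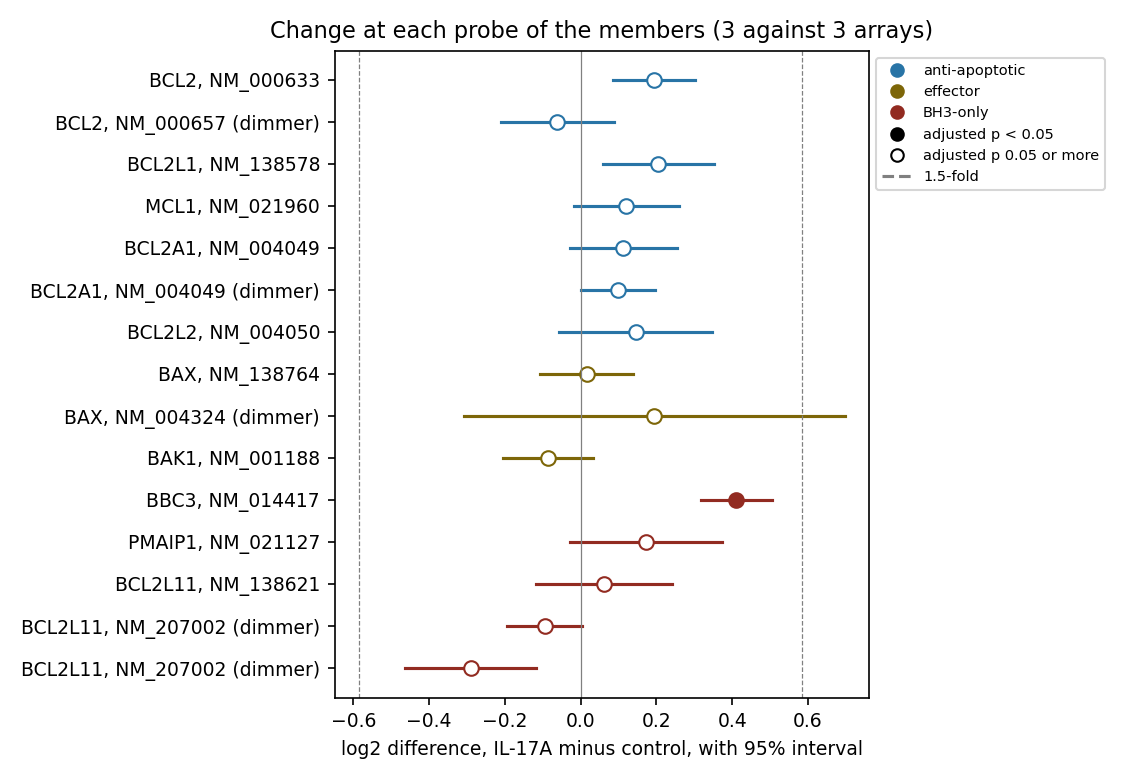
Log2 difference between 3 IL-17A and 3 control arrays at each of the 15 probes, with the 95% interval from limma; colours give the role, and a filled point marks an adjusted p under 0.05. The interval of BBC3, 0.32 to 0.50, lies above 0 and below the dashed line of 1.5-fold, and the dimmer probes of BCL2 and BCL2L11 lie below 0.

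Of the effectors neither was called. BAX, the effector that moves from the cytosol to mitochondria, had a log2 signal of 10.46, 10.49 and 10.47 with IL-17A and 10.38, 10.45 and 10.53 in the controls. All IL-17A values lay within the range of the controls, and the difference of 0.016 had a 95% interval of -0.11 to 0.14 (adjusted p = 0.858 from limma). A second, dim BAX probe gave 0.19, with an interval of -0.31 to 0.70. BAK1, which resides in the mitochondrial membrane, was the only member that was lower at its brightest probe. Its log2 signal was 7.34, 7.29 and 7.21 with IL-17A and 7.40, 7.34 and 7.35 in the controls, just without overlap. The difference of -0.086 (adjusted p = 0.276 from limma) was not called.

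BCL2, BCL2L1 and BAX were each printed as 10 spots on every array, which shows the spread between spots of the same array. The standard deviation between spots of 1 array was 0.033 to 0.088 for BCL2, 0.040 to 0.089 for BCL2L1 and 0.031 to 0.095 for BAX on the log2 scale. The standard error of an array's mean was thus at most 0.030 for each gene. This error covers the spots of 1 hybridization and leaves out labelling, hybridization and culture, so it was not set against the difference between groups. The spots of BCL2 had a median signal of 361, 396 and 357 on the IL-17A arrays and of 334, 302 and 315 on the control arrays before normalization between arrays. For BCL2L1 the medians were 108, 96.9 and 95.8 against 92.6, 83.5 and 79.9. The groups stayed apart for both genes on this scale, and for BAX (1424, 1510 and 1400 against 1403, 1313 and 1461) they overlapped. Spots of 1 array are repeats of 1 hybridization and were averaged.

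**Figure D3:**
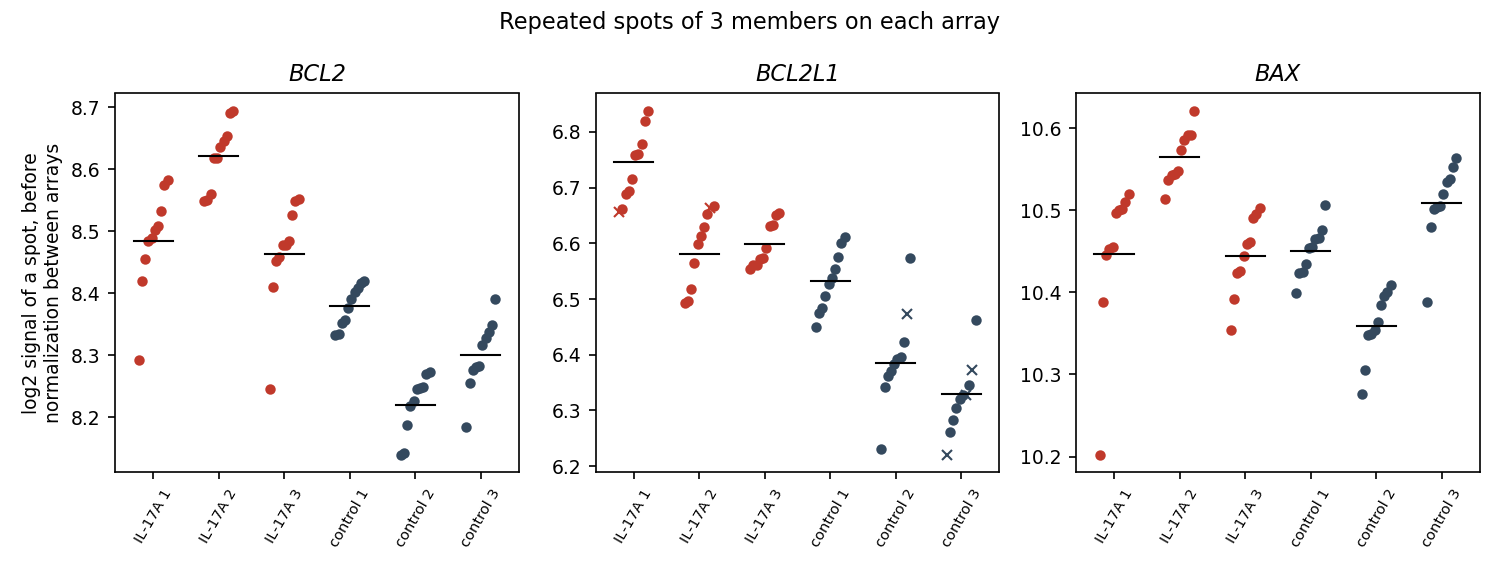
Log2 signal of the 10 repeated spots of BCL2, BCL2L1 and BAX on each array, before normalization between arrays; lines are the means of the spots used, and crosses are spots that the software marked as outliers. The spots of all IL-17A arrays have higher means than those of all controls for BCL2 and BCL2L1, and the arrays of BAX mix.

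The balance of survival and death genes was described within each array, as the log2 ratio of an anti-apoptotic member to an effector or BH3-only member, and only its change between the groups was read. Over all 10 members the mean log2 signal of the 5 survival genes was 0.16 higher with IL-17A and that of the 3 BH3-only genes 0.22 higher, whereas the effectors differed by -0.035, as differences of means without a test. The survival mean minus the mean of the 5 death genes was -2.05, -2.06 and -2.01 with IL-17A and -2.05, -2.09 and -2.11 in the controls. The groups overlapped and the change was 0.040, with a SD of 0.03 within each group. It was 0.024 without IL-17A replicate 3 and 0.055 without control replicate 1.

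The single ratios split by death gene. Of 25 ratios 17 were higher and 8 lower with IL-17A, and 13 did not overlap between the groups, 8 of them higher and 5 lower. All 5 ratios to BBC3 were lower without overlap, by 0.21 to 0.30 on the log2 scale, and MCL1 to BBC3, for example, was -1.60 ± 0.06 after IL-17A against -1.31 ± 0.07 in control arrays (SD, n = 3 each). All 5 ratios to BAK1 were higher, from 0.20 for BCL2A1 to 0.29 for BCL2L1, and 4 of them did not overlap. BCL2 to BAX was 0.18 higher, at -1.96 ± 0.04 after IL-17A against -2.14 ± 0.04 in control arrays (SD, n = 3 each). The ratios to PMAIP1 changed by 0.061 or less in either direction, with overlap in all 5. These ratios reuse the same 10 genes, are not independent and add nothing to the single-gene differences given above. BBC3 rose by more than any survival gene and BAK1 alone was lower, so the direction of their ratios was fixed by those differences. No background share was computed for the counts of ratios.

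**Figure D4:**
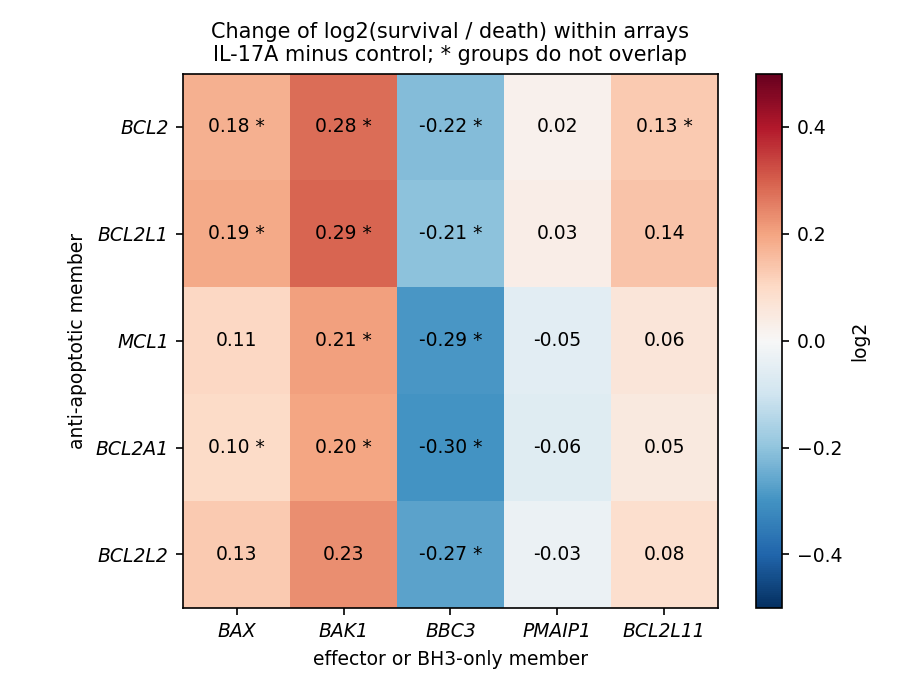
Change between the groups, IL-17A minus control, of the log2 ratio of each anti-apoptotic member (rows) to each effector or BH3-only member (columns) within an array; an asterisk marks ratios whose groups do not overlap. The column of BBC3 is negative throughout and that of BAK1 positive throughout.

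Of 13 other BCL2 family genes 12 were tested. Their median difference was -0.035, with 5 higher and 7 lower, and 1 of the 12 was called, a share near the 7.86% of all named genes. This was HRK, a BH3-only gene best known from neurons and lymphoid cells, which inhibits BCL2 and BCL-XL. Its log2 signal was 12.01, 11.99 and 12.00 with IL-17A and 11.63, 11.71 and 11.65 in the controls, a difference of 0.34 (standard error 0.04, 95% interval 0.24 to 0.43, adjusted p = 0.0308 from limma) without overlap. With slide as a block the difference was 0.35, at an unadjusted p of 0.00244 and an adjusted p of 0.0956. The BH3-only genes BAD and BIK, at -0.18 and -0.14, did not overlap between the groups and were not called (adjusted p = 0.0788 and 0.110 from limma). BMF (0.14, adjusted p = 0.253) and BID (-0.13, adjusted p = 0.347) overlapped.

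Downstream of the family, all 20 partners of the mitochondrial death pathway were tested. Their median difference was -0.0031, with 10 higher and 10 lower. Of the 20 partners 3 were called, each lower with IL-17A, against 7.86% of all named genes called and 3.50% called lower. CYCS, the cytochrome c whose release activates APAF1, was at 11.59, 11.55 and 11.55 with IL-17A and 11.84, 11.87 and 11.79 in the controls (difference -0.27, standard error 0.04, adjusted p = 0.0328 from limma). ENDOG, a mitochondrial nuclease, differed by -0.32 (adjusted p = 0.0328), and BCAP31, a membrane protein of the endoplasmic reticulum, by -0.19 (adjusted p = 0.0475). CYCS also serves respiration in living cells. With slide as a block the differences of CYCS, ENDOG and BCAP31 were -0.24, -0.31 and -0.24, and all 3 calls were lost (adjusted p = 0.123, 0.116 and 0.119 from limma). APAF1, at 0.031, and DIABLO, at -0.093, were not called.

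Upstream, a list of 20 genes held transcription factors that are known to act on BCL2 family genes, and MDM2, a ubiquitin ligase. Of these 18 were tested and 6 were called, against 7.86% of all named genes. This list was chosen with earlier results known and was not tested as a set. There were 5 called higher (4.37% of all named genes) and 1 called lower (3.50%), and the median was 0.13. ATF4 and DDIT3, transcription factors of the integrated stress response, differed by 0.35 (standard error 0.05, adjusted p = 0.0339 from limma) and 0.38 (standard error 0.07, adjusted p = 0.0419). RELB and REL, subunits of NF-kB, differed by 0.30 (adjusted p = 0.0330) and 0.22 (adjusted p = 0.0365), and STAT5A by 0.23 (adjusted p = 0.0362). The gene called lower was MDM2, at -0.21 (adjusted p = 0.0469), which is named after its values were seen. MYC, named above with the E-box, differed by 0.049 and was not called (adjusted p = 0.402 from limma). With slide as a block the differences of ATF4, DDIT3, RELB, REL and STAT5A were 0.35, 0.38, 0.33, 0.26 and 0.25, and that of MDM2 was -0.20. All 6 calls were lost there, with adjusted p-values from limma of 0.108 (RELB and REL) to 0.163 (MDM2).

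**Figure D5:**
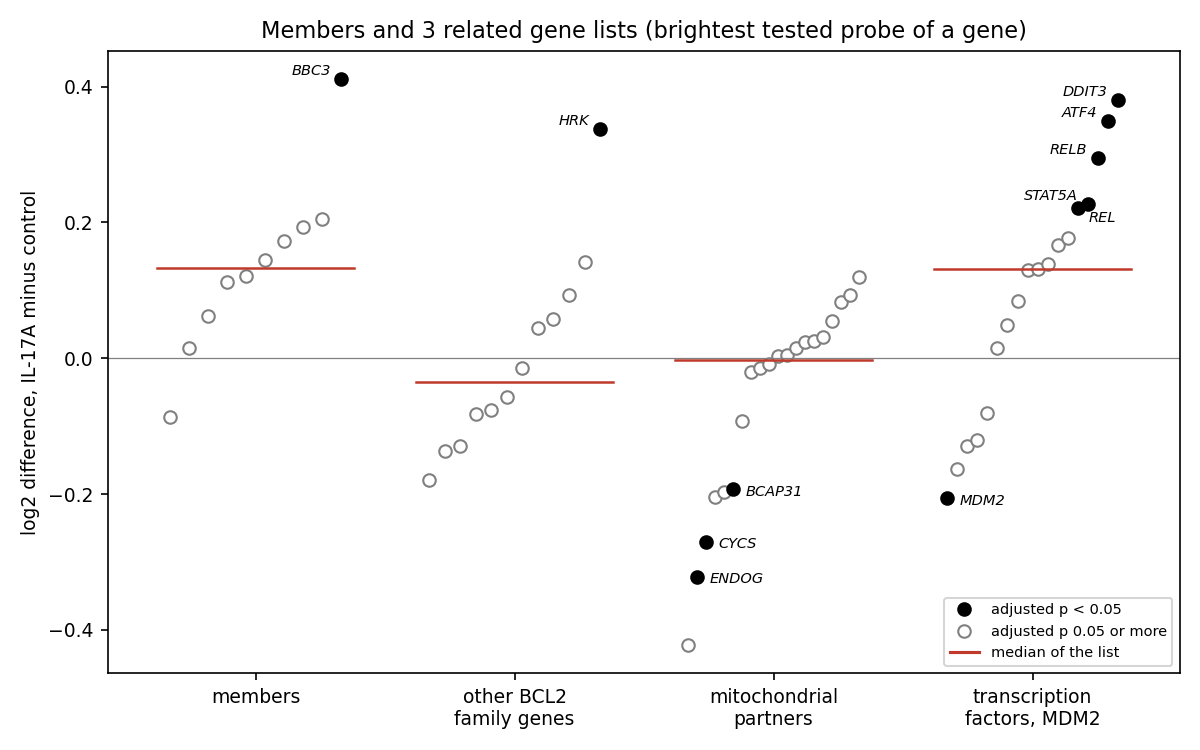
Log2 difference between the groups at the brightest tested probe of each gene, for the members and 3 related lists; filled points have an adjusted p under 0.05 and red lines are medians. The medians are 0.13 for the members, -0.035 for other family genes, -0.0031 for mitochondrial partners and 0.13 for the transcription factors with MDM2.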

How the data were processed

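Total RNA was labeled with Cy3 and hybridized to 1 Agilent Whole Human Genome array per sample. The deposited files hold, per spot, a linear intensity from Agilent Feature Extraction 11.0.1.1 (per the labels) already corrected for background but not scaled across arrays, together with flags of 0 or 1 on other columns (unit other, such as detection and outlier flags, as deposited). The authors also deposited log2 values that they had quantile normalized, and these served as an alternative.

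Control spots, non-uniform spots (4 to 25 per array) and population outliers (297 to 447 per array) were left out. Intensities below 1 were set to 1, log2 values of repeated spots were averaged, and quantile normalization was applied across the 6 arrays after the study's methods. A spot counted as detected when positive, significant and well above background, and a probe on at least 3 arrays was tested (38 with a missing value were left out). Genes were named through RefSeq (GRCh38.p14); probe positions were not used. Groups were taken from the titles and compared by a two-sided test in limma 3.58.1 under R 4.3.3, with no covariate. A simulation checked the fit with known changes that were larger than any difference of the members, and without scan effects. It does not show how often changes of the reported size are found. The number of arrays limits the precision.

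Members and lists were chosen with earlier results of these data known, and no list was tested as a set. Besides the members, the text names the called genes of each list, up to 5 by lowest p, the 2 genes closest to BBC3, and markers. Genes of the lists that were not called were named after their values were seen. Alternatives covered normalization, background correction, filters, the floor, the variance model, the methods' t-test, array weights, blocks, which probe stood for a gene, and leaving out arrays 1 at a time. Some genes of the lists are not reported here by name.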

Additional observations from a re-analysis of the deposited data

How the results depend on the processing

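The log2 difference of BBC3 was 0.38 to 0.44 under 21 alternatives, with an adjusted p of 0.000353 to 0.125 from limma. The filters, the floor, the intensity trend, the t-test, the replicate block and the choice of probe left it at 0.41. These settings could not move the difference of a bright gene with 1 probe, so its agreement there is no check. Of 215 values of the members 191 had the same sign and the same call, 8 lost their call, 8 gained one and 8 changed sign. Many of the same signs were fixed in that way, since 6 members have 1 probe. The dimmer BCL2 probe and the dimmest BCL2L11 probe each entered the reversed values 2 times. The reversed values were BCL2L2 at -0.0092 with slide as a block, BAX at -0.020 without control replicate 1 (-0.020 to 0.054 over the arrays left out), BCL2 at -0.062 at its dimmer probe, and BCL2L11 at -0.29 and -0.095 at its other probes and -0.11 as the mean of its probes. Under the alternatives not named here 1 member was called, and none of the members passed 1.5-fold under any.

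Without normalization between arrays, the members called fell from 1 to 0, all called probes from 1823 to 46, and each of the other lists to 0. BCL2 and BBC3, 2 members, were called under normexp, with an intensity trend and with probes detected on all 6 arrays, and 6 with array weights, which gave weights of about 7.0 and 7.19 to IL-17A replicate 3 and control replicate 2 and 0.33 to 0.48 to the others. With these weights 14836 probes were called, and 8, 10 and 15 genes of the other family, partner and transcription factor lists. With the trend 3856 probes and 3 other family genes were called. Scaling to the 75th percentile left 3 transcription factor genes. The balance changed by 0.0067 under normexp and 0.072 with array weights. With slide as a block 0 members, 48 probes and 0 genes of each list were called.

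The labels do not say whether same-numbered arrays belong together. Deviations of same-numbered arrays from their group means correlated at -0.087, -0.0024 and -0.047 across probes. With 3 arrays per group these values are constrained and cannot decide whether the arrays were paired. With a replicate block, 0 members, 4 probes and 0 genes of each list were called, and BBC3 had an adjusted p of 0.123 from limma. With each array left out in turn, 0 to 1 members, 2 to 887 probes, 0 to 1 other family genes, 0 to 2 partners and 0 to 1 transcription factor genes were called, 0 of the members in all but the fit without control replicate 3. The settings for the lists, and the one that kept population outlier spots, were chosen after seeing the data. Signal over background did not limit the brightest probes of the members.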
